A study of Homo sapiens with 4 samples.

Results

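The catalytic AMPK subunit and the enzymes that turn acetyl units into fatty acids were followed by Reverse Phase Protein Array (RPPA) in LN229 cells treated with salmon calcitonin (sCT). Rows were taken by antibody name, as every total-protein or phosphosite row for ACC, ACLY, AceCS1, ACSL1, FASN, SCD, FABP5 and AMPK alpha. This gave 10 of the 440 antibodies analysed here, of which 6 are total-protein rows (AMPKa, ACC1, AceCS1, FASN, SCD and ACSL1) and 4 are phosphosite rows (AMPKa_pT172, AMPK-a2_pS345, ACC_pS79 and ACLY_pS455). No row matched FABP5, and ACLY was represented by its site only. LN229 cells are a long-established line from a human glioblastoma. sCT is a peptide ligand of the calcitonin receptor (CTR), a G protein-coupled receptor. In RPPA, lysates are spotted onto slides that each receive 1 antibody. The 4 samples were biological duplicates, 2 of untreated cells labelled 0 min and 2 of cells given 300 nM sCT for 60 min. Since no untreated sample was labelled 60 min, the effects of sCT and of the time until harvest cannot be told apart. Values are relative levels with a median of 1 in every sample, so a level compares samples for 1 antibody but does not compare antibodies, and the cell line's identity cannot be checked from them.

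AMPK is a kinase that responds to falling cellular energy, and it is switched on by phosphorylation of T172 in its alpha subunit, by LKB1 or a calcium-dependent kinase. Active AMPK phosphorylates acetyl-CoA carboxylase (ACC) at S79, which inhibits the first committed step of fatty acid synthesis. ACLY makes the cytosolic acetyl-CoA for this pathway from citrate, AceCS1 makes it from acetate, FASN builds palmitate, SCD desaturates it and ACSL1 couples long-chain fatty acids to CoA.

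After sCT, the phosphosites ACC_pS79, ACLY_pS455 and AMPKa_pT172 and the total protein AceCS1 were lower, and the other members did not pass the test. Thus limma, which moderates the replicate spread of each antibody towards that of the panel, called 4 of 10 lower and 0 higher (adjusted p of 0.05). Over the whole panel 55% of antibodies passed this threshold, with 33.6% lower and 21.4% higher, so the count of members was not above the background. Of the 4 phosphosite members 3 were lower, beside 47.7% of the 88 phosphosite antibodies of the panel, and of the 6 total-protein members 1 was lower, beside 30.1% of the 352 total-protein antibodies. The median log2 fold change was -0.12 over the 10 members and 0.02 over all 440 antibodies. It was -0.48 over the 4 sites and -0.04 over the 6 total proteins, beside -0.16 over all sites and 0.05 over all total proteins. The groups did not overlap for 7 of the 10 members, 5 with both sCT samples below both untreated samples and 2 with both above, where 85.9% of the panel did not overlap.

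**Figure D1:**
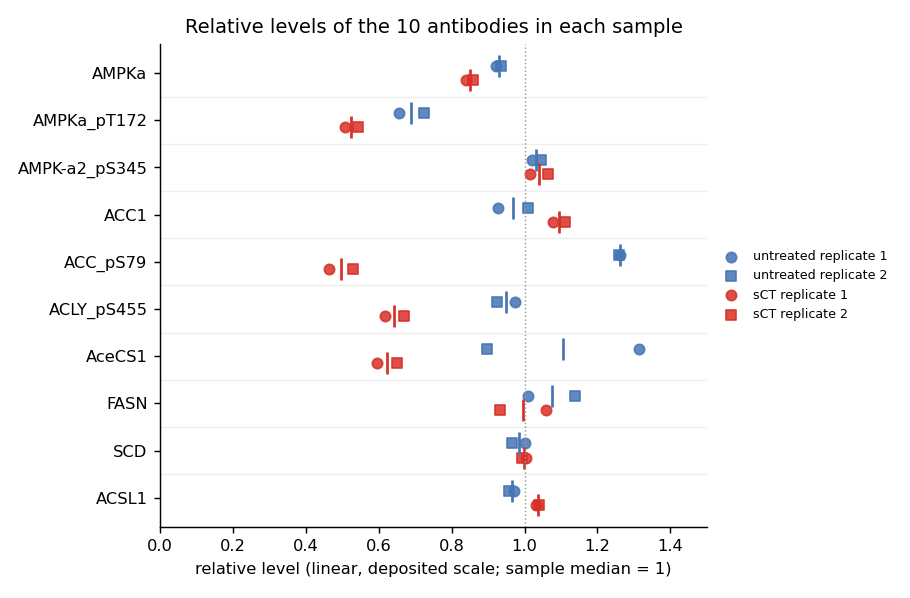
Relative level (x axis, linear, as deposited, with sample medians of 1) of the 10 antibodies (y axis) in the 2 untreated samples (blue) and the 2 sCT-treated samples (red), with circles for replicate 1, squares for replicate 2 and vertical ticks for group means. ACC_pS79 shows the widest gap between groups, from 1.26 in both untreated samples to 0.464 and 0.530 after sCT, while the AceCS1 levels of the untreated samples lie apart from each other at 1.32 and 0.897.

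Among the AMPK antibodies, the activating site was lower after sCT and the subunit itself was not called. AMPKa_pT172 had levels of 0.654 and 0.723 in the untreated samples and of 0.507 and 0.544 in the sCT samples. Both sCT samples were below both untreated samples, with a log2 fold change of -0.39 (SE 0.07; limma, adjusted p = 0.00982), or 76.3% of the untreated level. Total AMPKa had levels of 0.921 and 0.936 in untreated cells and of 0.840 and 0.859 after sCT. These groups did not overlap either, but the log2 fold change of -0.13 (95% confidence interval -0.24 to -0.01) did not pass the adjusted threshold (adjusted p = 0.0628 from limma). AMPK-a2_pS345, a site of the alpha 2 subunit that mTORC1 is known to phosphorylate, had levels of 1.02 and 1.04 in untreated cells and of 1.02 and 1.06 after sCT. The groups overlapped, with a log2 fold change of 0.01 (95% confidence interval -0.12 to 0.14, adjusted p = 0.865 from limma).

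The fall of AMPKa_pT172 depended on the scaling of the samples. Quantile normalization, which gives each value the mean over the samples of the values at its rank, gave a log2 fold change of 0.58 in the opposite direction (adjusted p = 0.0347 from limma). The deposited level of AMPKa_pT172 was the 7th and 18th lowest of 440 in the untreated samples and the 39th and 38th lowest after sCT. More antibodies thus had values below it in the sCT samples, although its own level was lower there. Without sCT replicate 1 the log2 fold change was -0.34 and the call was lost (adjusted p = 0.0702 from limma).

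ACC phosphorylated at S79, the site through which AMPK inhibits the enzyme, fell the furthest of the 10 members. Its level was 1.26 in both untreated samples and 0.464 and 0.530 in the sCT samples. The sCT samples were at 39.3% of the untreated level, a log2 fold change of -1.35 (SE 0.08; limma, adjusted p = 0.000290), which ranked 36th from the lowest of the 440 changes. Total ACC1 did not share this fall, with levels of 0.928 and 1.01 in untreated cells and of 1.08 and 1.11 after sCT. Both sCT samples were above both untreated samples, but the log2 fold change of 0.18 (95% confidence interval 0.02 to 0.34) was not called (adjusted p = 0.0611 from limma). This depended on the setting. ACC1 was called higher with trend and robust estimation and with the replicate block (adjusted p = 0.0357 and 0.0485 from limma). Without untreated replicate 2 its log2 fold change was 0.24. With the loading control centring described below it was 0.03 (adjusted p = 0.733 from limma). Each replicate left out in turn gave -1.44 to -1.25 for ACC_pS79, with an adjusted p of at most 0.00667, and quantile normalization gave -0.95.

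To set the sites against the amount of protein, the site level was divided by the total level within each sample, which cancels any scaling factor of a sample. ACC_pS79 over ACC1 was 1.36 and 1.25 in untreated cells and 0.430 and 0.477 after sCT. The log2 difference was -1.52, larger than the SD of 0.09 between untreated and 0.10 between sCT replicates. An exact permutation test gave a two-sided p of 0.333, the smallest that 2 samples against 2 allow, and limma with the ratio added to the panel gave adjusted p = 0.000204. The site row is named for ACC and the total row for ACC1, so the share of another ACC isoform in the site signal was not tested. AMPKa_pT172 over AMPKa was 0.710 and 0.772 in untreated cells and 0.603 and 0.633 after sCT. Its log2 difference was -0.26 (exact permutation test, two-sided, p = 0.333), with adjusted p = 0.0214 in limma, and it was 0.54 after quantile normalization. AMPK-a2_pS345 over AMPKa was 1.11 in both untreated samples and 1.21 and 1.24 after sCT, a log2 difference of 0.14 (exact permutation test, two-sided, p = 0.333; limma adjusted p = 0.0502), and quantile normalization turned it to -0.05. The pair of AMPK ratios thus had no direction that held under every scaling, whereas ACC_pS79 over ACC1 was -1.18 after quantile normalization.

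**Figure D2:**
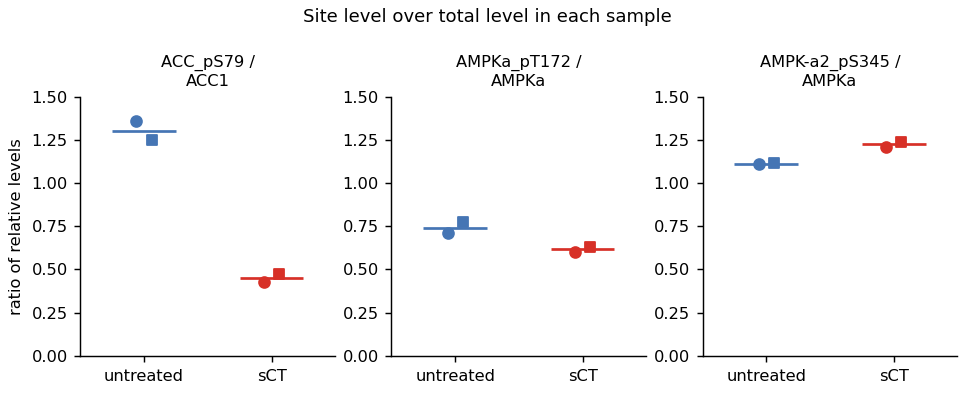
Ratio of the phosphosite level to the total level (y axis, no unit) in the untreated samples (blue) and the sCT-treated samples (red), with circles for replicate 1, squares for replicate 2 and lines for group means. For ACC_pS79 over ACC1 the sCT samples lie at 0.430 and 0.477 against 1.36 and 1.25, a wider gap than for the AMPK ratios.

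The sites also differed from each other in how far they moved, which was compared only once their values were known. ACC_pS79 changed by 0.96 log2 units more than AMPKa_pT172, with a difference of -0.96 (95% confidence interval -1.14 to -0.77, adjusted p = 0.000556 from limma). Against ACLY_pS455 the difference was -0.78 (95% confidence interval -0.93 to -0.64, adjusted p = 0.000473 from limma). ACLY_pS455 and AMPKa_pT172 differed by -0.17, with a 95% confidence interval of -0.40 to 0.05 that includes 0. Of the 3 pairs, the exact permutation test gave p = 0.333 for each, its smallest value. The antibodies may respond to protein amount with different slopes, which was not tested.

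The steps that supply acetyl-CoA had lower signals after sCT. ACLY_pS455, a site that AKT and PKA phosphorylate and that raises the activity of ATP citrate lyase, had levels of 0.975 and 0.923 in untreated cells and of 0.616 and 0.669 after sCT. Both sCT samples were below both untreated samples, at 67.7% of the untreated level, with a log2 fold change of -0.56 (SE 0.06; limma, adjusted p = 0.00203). Each replicate left out in turn gave -0.62 to -0.50, and the call held each time (adjusted p at most 0.0204 from limma). Quantile normalization reduced the log2 fold change to -0.30 (adjusted p = 0.0131 from limma). Since total ACLY was not analysed here, a lower site cannot be told apart from a lower amount of the enzyme.

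AceCS1, the cytosolic acetyl-CoA synthetase encoded by ACSS2, had levels of 1.32 and 0.897 in untreated cells and of 0.596 and 0.649 after sCT. The groups did not overlap, with a log2 fold change of -0.80 (SE 0.19; limma, adjusted p = 0.0217). Its untreated replicates differed 1.47-fold, the 9th largest such difference on the panel, and its standard error and adjusted p were the largest of the 4 members called. It kept a negative sign under every alternative run. Without untreated replicate 1 the log2 fold change was -0.53 and without untreated replicate 2 it was -1.08. The call was lost without sCT replicate 1, at -0.74, and without sCT replicate 2, at -0.87. Quantile normalization also lost it, where limma gave -0.52 (adjusted p = 0.110). The replicate block (adjusted p = 0.0589 from limma) and the unequal-variance test (adjusted p = 0.326) lost it as well.

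FASN, SCD and ACSL1, which build, desaturate and activate fatty acids, were not called. FASN had levels of 1.01 and 1.14 in untreated cells and of 1.06 and 0.931 after sCT, so the groups overlapped. Its log2 fold change was -0.11, with a 95% confidence interval of -0.36 to 0.14 (adjusted p = 0.342 from limma). SCD had levels of 1.003 and 0.965 in untreated cells and of 1.004 and 0.994 after sCT, with a log2 fold change of 0.02 and an interval of -0.10 to 0.14. The groups overlapped for SCD as well, and a change of more than 0.14 in either direction lay outside its interval. This holds for the deposited scaling only. With the loading control centring described below, limma gave -0.13 for SCD (adjusted p = 0.107) and -0.26 for FASN (adjusted p = 0.0566). ACSL1 had levels of 0.970 and 0.958 in untreated cells and of 1.03 and 1.04 after sCT. The sCT samples were above the untreated ones, but the log2 fold change of 0.10 (95% confidence interval -0.01 to 0.22) did not pass the threshold (adjusted p = 0.0961 from limma).

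**Figure D3:**
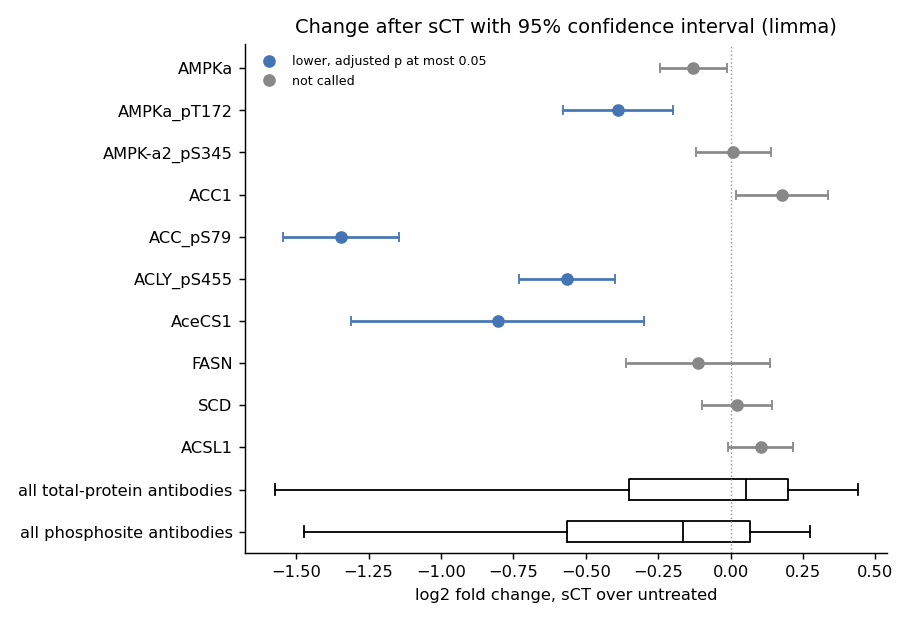
Log2 fold change of sCT over untreated (x axis) for the 10 antibodies, with points for the limma estimate, bars for its 95% confidence interval and blue for an adjusted p of at most 0.05. Boxes below give the quartiles, and whiskers the 5th and 95th percentiles, over all 352 total-protein and all 88 phosphosite antibodies. The point of ACC_pS79 lies at -1.35, and those of SCD and AMPK-a2_pS345 lie at 0.02 and 0.01.

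The study's heatmap legend sets a p of 0.05, without saying whether it was adjusted, and an absolute log2 change of 0.58. With an unadjusted p, ACC_pS79 and AceCS1, 2 of 10 members and both lower, met these limits, where 21.6% of the panel did and 19.1% was lower. ACLY_pS455 lay just short of the fold threshold at -0.56.

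Some properties of the whole panel moved with the groups. Across antibodies, which are not replicates, Pearson's r between log2 levels was 0.790 for the untreated pair and 0.975 for the sCT pair. The median SD of log2 levels between replicates was closer, at 0.045 for the untreated and 0.041 for the sCT pair. Of 6 loading control antibodies, 3 were higher after sCT and 0 lower, beside 21.4% higher and 33.6% lower over the panel. Their log2 fold changes ran from -0.15 for Histone-H3 to 0.57 for GAPDH (adjusted p = 0.0812 and 0.00578 from limma). Centring each sample on these 6 antibodies, each relative to its own mean, moved every log2 fold change by -0.15 and gave 195 lower and 36 higher calls over the panel, against 148 and 94. The log2 fold change was then -0.28 for total AMPKa, which passed the threshold (adjusted p = 0.00720 from limma). FASN, at -0.26 (adjusted p = 0.0566 from limma), did not pass. Nor did ACC1 at 0.03, ACSL1 at -0.05, SCD at -0.13 and AMPK-a2_pS345 at -0.14. The part that loading or a wider loss of site signals had in the member values was not tested.

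**Figure D4:**
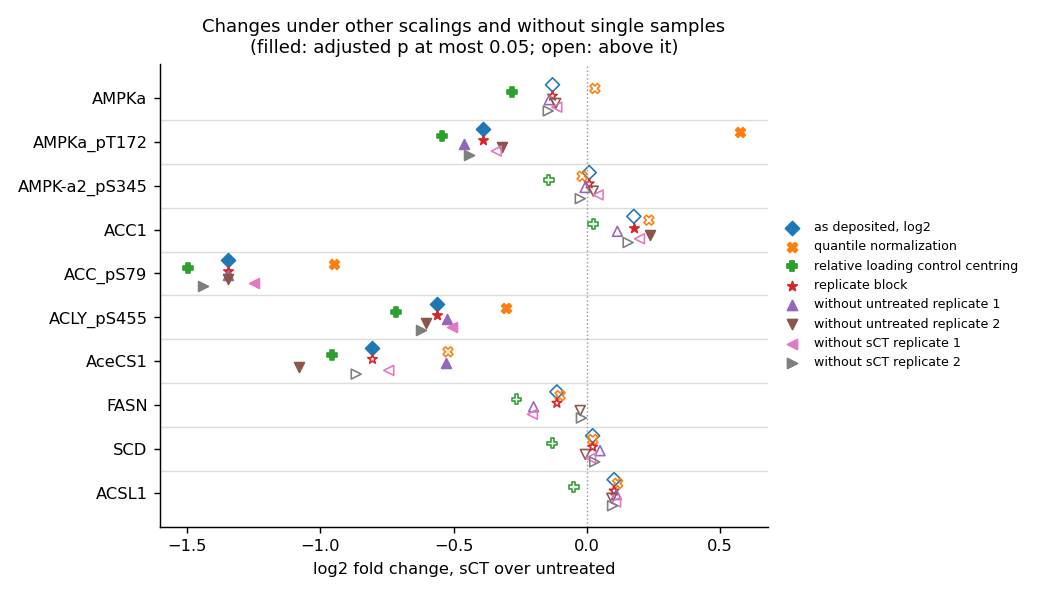
Log2 fold change of sCT over untreated (x axis) of the 10 antibodies (y axis) with the deposited scaling, 2 other scalings, the replicate number as a block and each of the 4 samples left out in turn; filled symbols have an adjusted p of at most 0.05 in limma. ACC_pS79 and ACLY_pS455 are lower and filled throughout, and AMPKa_pT172 lies at 0.58 after quantile normalization and below 0 otherwise.

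Antibodies to proteins around AMPK were mostly lower. Of 10 antibodies to substrates of AMPK and proteins linked to them, 7 were lower and 0 higher, where 33.6% of the panel was lower and 21.4% higher. The median log2 fold change of the 10 was -0.44 beside 0.02 over the panel. None of the 10 is to LKB1, and the sites among them are not taken here as AMPK sites. FOXO3, a transcription factor that AMPK phosphorylates, had levels of 0.821 and 0.858 in untreated cells and of 0.240 and 0.263 after sCT, a log2 fold change of -1.74 (adjusted p = 0.000141 from limma). Tuberin (TSC2), through which AMPK restrains mTORC1, changed by -1.11 (adjusted p = 0.00103), whereas Tuberin_pT1462, an AKT site, had a log2 fold change of 0.02 (adjusted p = 0.754). ULK1_pS757, the mTORC1 site that opposes activation of ULK1 by AMPK, fell from 0.946 and 0.965 to 0.517 and 0.541 (log2 fold change -0.85, adjusted p = 0.000290). Total mTOR, mTOR_pS2448 and eEF2K, a kinase of the elongation factor eEF2 that AMPK activates, changed by -0.53, -0.37 and -0.51. FoxO3a_pS318_S321 was called at -0.22 (adjusted p = 0.0295), but it lost the call without any 1 of the 4 samples, with adjusted p between 0.0591 and 0.143, and after quantile normalization (adjusted p = 0.0552) or with the replicate block (adjusted p = 0.0637). Raptor, a substrate of AMPK, was at 0.11 (adjusted p = 0.118) and eEF2 at -0.04 (adjusted p = 0.865).

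Kinases that act on ACLY S455, and markers of their activity, moved in both directions. Of 19 antibodies, 9 were lower and 3 higher, beside 33.6% lower and 21.4% higher over the panel, with a median of -0.17. Of the 8 sites among them 6 were lower and 0 higher, with a median of -0.86, where 47.7% of the panel's sites were lower. Akt_pS473 had levels of 1.37 and 1.67 in untreated cells and of 0.531 and 0.559 after sCT (log2 fold change -1.47, adjusted p = 0.000523 from limma), and Akt_pT308 changed by -1.04 (adjusted p = 0.000702). Total Akt was at 0.03 (adjusted p = 0.590), while Akt2 was lower at -0.81 and Akt1 higher at 0.19 (adjusted p = 0.0223). The Akt1 rise was lost without untreated replicate 2, without either sCT replicate and with loading control centring (adjusted p = 0.0813, 0.0987, 0.115 and 0.612). The other higher calls of this list, SGK3 at 0.24 and total CREB at 0.30, were also lost with loading control centring (adjusted p = 0.204 and 0.121). Without a replicate, Akt1_pS473 (-0.67, adjusted p = 0.0359) and SGK3 lost their calls without either sCT replicate, SGK3 also without untreated replicate 1, and total CREB without untreated replicate 2 or sCT replicate 1, with adjusted p between 0.0560 and 0.176. Akt1_pS473 also lost its call after quantile normalization (adjusted p = 0.0554) and on linear levels (adjusted p = 0.0603). PRAS40_pT246, an AKT site, was at -0.17 and was not called (adjusted p = 0.104), and GSK-3a-b_pS21_S9, a site of AKT and PKA, had a log2 fold change of -1.65 (adjusted p = 0.000141). Of its total proteins, GSK-3B was lower at -0.59 (adjusted p = 0.00210), and GSK-3a-b was at 0.22 and was not called (adjusted p = 0.0585). PDK1_pS241, the activation loop site of the kinase that phosphorylates AKT at T308, was lower at -0.57 (adjusted p = 0.00150), and total PDK1 was at -0.10 (adjusted p = 0.152). For PKA, the catalytic subunit PKA-a had levels of 1.08 in both untreated samples and of 0.883 and 0.829 after sCT (log2 fold change -0.33, adjusted p = 0.00603). CREB_pS133, a PKA site, changed by -2.04 (adjusted p = 0.000141). By western blot the study reported more phosphorylated PKA and unchanged total PKA in sCT-treated glioma cells, and it also reported higher cAMP. The activity of PKA was not tested here.

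Of 5 antibodies on a list for citrate and NADPH supply, among them PDHK1, a kinase that inhibits pyruvate dehydrogenase, 2 were higher and 0 lower in limma, where 21.4% of the panel was higher. Their median was 0.18, and all 5 had both sCT samples above both untreated samples, as 43% of the panel did. Glutaminase, which turns glutamine into glutamate, had levels of 0.885 and 0.863 in untreated cells and of 1.09 and 1.04 after sCT. Glutamate dehydrogenase (Glutamate-D1-2), which passes glutamate carbon to the citric acid cycle, had levels of 0.868 and 0.790 in untreated cells and of 1.08 and 1.04 after sCT. The log2 fold change was 0.36 for glutamate dehydrogenase and 0.29 for glutaminase (adjusted p = 0.00878 and 0.00810), and both lost their calls with loading control centring (adjusted p = 0.0705 and 0.0968) and without sCT replicate 1 (adjusted p = 0.0689 and 0.0587). Glutamate dehydrogenase also lost its call without sCT replicate 2 (adjusted p = 0.0503). PDH, PDHA1 and PDHK1, at 0.14, 0.18 and 0.10, were not called, and PDH and PDHK1 lay below 0 with loading control centring. A further list of fatty acid enzymes and regulators matched 0 antibodies analysed here outside the 10 members.

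**Figure D5:**
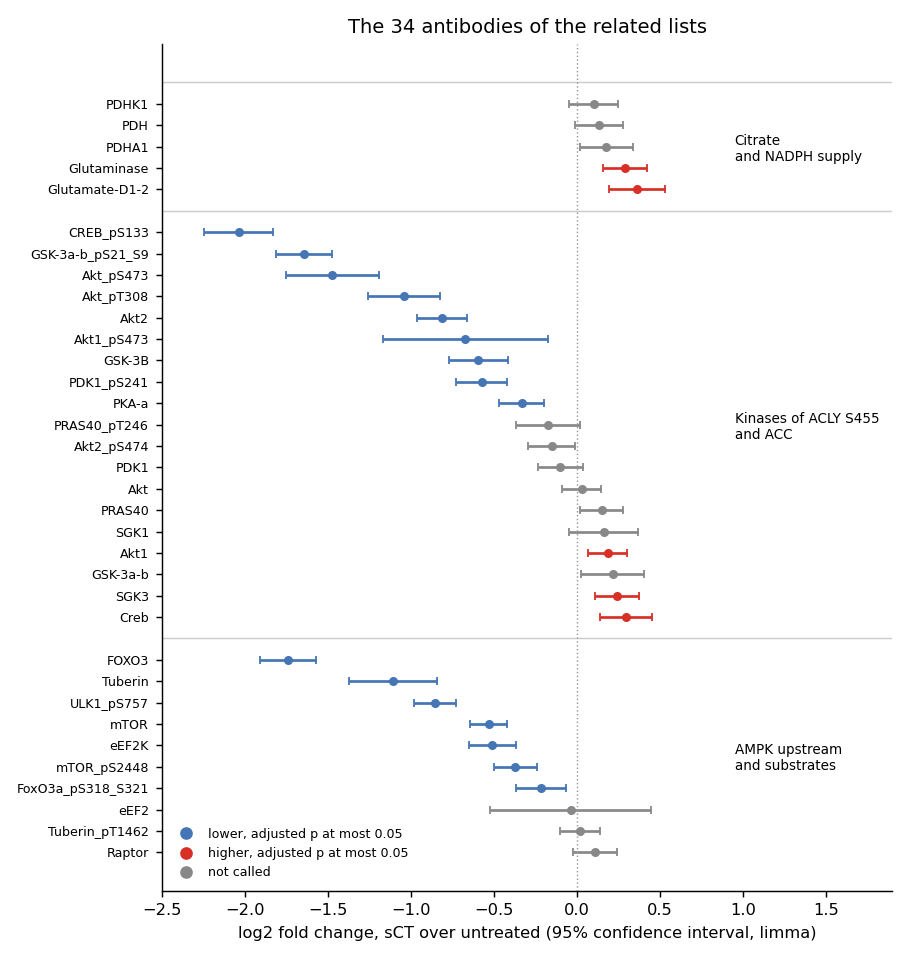
Log2 fold change of sCT over untreated (x axis, points for the limma estimate and bars for its 95% confidence interval) of 34 antibodies (y axis) in 3 lists, with blue for lower and red for higher at an adjusted p of at most 0.05. Of the AMPK list 7 of 10 are lower, of the kinase list 9 of 19, and of the citrate and NADPH list 0 of 5, where 33.6% of the panel was lower.

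The antibodies with profiles most like the members were found by the root mean square difference of log2 levels over the 4 samples, each antibody centred on its own mean. For ACC_pS79 they were PMS2 (0.03 log2 units), a mismatch repair protein, Bad_pS112 (0.04) and Histone-H3_pS10 (0.04). For ACLY_pS455 they were Snail (0.03), eEF2K (0.04) and PDK1_pS241 (0.04), and for AMPKa_pT172 DUSP6 (0.02), Fibronectin (0.03) and Coup-TFII (0.03). AceCS1 had no neighbour as close, with DNMT1 at 0.16, B-Raf at 0.16 and Rb at 0.18. With 4 samples such likeness describes the size of the change and the replicate spread alone.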

How the data were processed

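Lysates of sCT-treated and untreated LN229 cells were profiled by RPPA, as serial dilutions stained with DAB, and spots were quantified in Array-Pro Analyzer. The authors deposited linear ratios, 1 relative level per antibody and sample. The steps from spot intensities to these ratios are not given in the sources used here, which leaves the signal over background unknown. Depth does not apply, and the number of samples limits the precision.

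All levels were above 0, so log2 was taken with neither pseudocount nor filter. Groups from the sample titles entered limma (version 3.58.1 under R version 4.3.3) through lmFit and eBayes without covariates, with 2 residual and 2.59 prior degrees of freedom, two-sided, with Benjamini-Hochberg adjustment over 440 antibodies. A ratio of 2 antibodies was tested exactly over samples, and in limma as a row added to the panel. Code was tested on simulated data. The alternatives were linear levels, median centring, quantile normalization, relative loading control centring, trend and robust estimation, a filter on the lowest 10%, an unequal-variance test, the thresholds of the heatmap legend, a replicate block and leaving out each sample. The members, lists and rule for named antibodies (all members, called list antibodies and the 3 nearest profiles) were chosen with earlier results of these data known. List antibodies that were not called were named after their values were seen. Some antibodies of these lists are not reported here.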

Additional observations from a re-analysis of the deposited data

How the results depend on the processing

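Of the 10 members, 4 were called. After adjustment the per-antibody test with unequal variances called 0 of 10 members and 1 of the 440 antibodies (4 members and 155 antibodies at an unadjusted p of 0.05). The count of members was 2 at the thresholds of the heatmap legend, which 95 of the 440 met, and 2 to 5 with each replicate left out, lowest without sCT replicate 1. Of the 34 list antibodies 21 were called, or 61.8% beside 55% of the panel, against 0 in that test (12 at an unadjusted p of 0.05), 10 at the legend's thresholds and 14 to 20 with a replicate left out, where a lone sample takes the spread of the other group. ACC_pS79 relative to ACC1, -1.52, passed in limma at the same value and was -1.60 to -1.45 with a replicate left out. AMPKa_pT172 was 0.58 after quantile normalization, and its ratio to AMPKa 0.54. Values that were not called and changed sign were AMPKa at 0.0315, AMPK-a2_pS345 at -0.0167 and its ratio to AMPKa at -0.0482 after quantile normalization, and ACSL1 at -0.0485, SCD at -0.13 and AMPK-a2_pS345 at -0.14 with relative loading control centring. With a replicate left out, AMPK-a2_pS345 ranged from -0.0237 (without sCT replicate 2) to 0.0434 and SCD from -0.0049 (without untreated replicate 2) to 0.0505. The sign changes with relative loading control centring follow from its shift of -0.15 in every log2 fold change. The cause of the others was not tested.

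Deviations from group means correlated with r = 0.586 between samples of the same replicate number, but with 2 pairs the numbers are not shown to pair samples. With the replicate number as a block, 4 members and 238 of the 440 antibodies were called. AceCS1 was not called (adjusted p = 0.0589 from limma) and ACC1 was, at 0.18 (adjusted p = 0.0485). The blocked ratio of ACC_pS79 to ACC1 was -1.52 (exact permutation test, p = 0.500), and 22 list antibodies were called.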
